A study of Mus musculus with 38 samples.

Results

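The 9 tubular injury marker genes described here were followed through 10 groups of mouse kidney libraries. They were chosen by symbol, and 9 of the 55487 genes in the deposited count table carry these symbols, namely Havcr1, Lcn2, Spp1, Clu, Timp1, Krt20, Sox9, Vcam1 and Cd44. The study asked what an excess of fibroblast growth factor 23 (FGF23), a bone hormone that acts on the kidney, does to healthy and to diseased kidneys, and measured the transcriptome by bulk RNA-Seq in 38 libraries from 3 experiments.

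In the anti-glomerular basement membrane (anti-GBM) experiment, male C57BL/6JRj mice were immunised with sheep IgG and then given nephrotoxic serum, an antibody preparation against the glomerular filter, while healthy mice received buffer. Recombinant human FGF23 (1 µg a day) or vehicle was injected for 6 days, and kidneys were taken at 10 weeks of age. There were 4 healthy mice with vehicle, 3 healthy with FGF23, 4 diseased with vehicle and 3 diseased with FGF23. In the Adriamycin experiment, female BALB/c mice received 1 injection of Adriamycin (doxorubicin), which damages podocytes, or its vehicle. A single injection of 1 µg FGF23 or vehicle followed 24 h before dissection at 10 weeks of age, with 4 mice in each of the 4 groups. The third experiment used precision-cut slices of kidney (PCKS). The donors were DBA/2J mice of 23 weeks fed adenine, which forms crystals in the tubules. Slices were cultured with vehicle (4 cultures) or with 200 ng/mL FGF23 (4 cultures). The labels give 1 h of treatment and the study's text gives a longer one. The slices had no disease-free control, so they carry no disease comparison.

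The tubule epithelium reabsorbs most of the glomerular filtrate and changes its gene programme when it is hurt. Injured proximal tubule cells lose transporters and expose the phosphatidylserine receptor KIM-1 (Havcr1). The injured tubule also secretes proteins that bind iron carriers or matrix. Surviving cells dedifferentiate, switch on the transcription factor Sox9 and divide, and cells that do not complete repair are known to keep adhesion molecules such as Vcam1 on their surface. Several of these genes are also used by other cells, Vcam1 by endothelium, Cd44 by leukocytes, Timp1 by fibroblasts and Lcn2 by neutrophils.

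Total counts ran from 11186925 to 27583911 per library. Mice are numbered here as their columns in the count table are, 1 to 32, and slice cultures 33 to 40. The slice libraries went against their sex label. The slice mice are labelled male, but all 8 libraries held 13261 to 22993 counts of Xist, the RNA of the inactive X chromosome, and 0 to 1 counts of the Y-linked genes Ddx3y, Uty, Eif2s3y and Kdm5d, as in the female Adriamycin mice. Libraries of the male anti-GBM mice held 0 to 4 counts of Xist. Defining markers of the kidney were present throughout, with Lrp2 (proximal tubule) at 1189 to 3143 CPM and Umod (thick ascending limb) at 1266 to 5804 CPM in the kidneys. In the slices Umod stood at 1124 to 4110 CPM and Lrp2 at 46.0 to 101 CPM. Levels are given as CPM, read counts scaled to a common library total, on 1 scale, with trimmed mean of M-values (TMM) factors over all 38 libraries. In bulk tissue, fewer cells of a type and less RNA per cell cannot be told apart.

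By length, the 9 genes started from very different levels. In healthy C57BL/6 kidneys with vehicle, Spp1 had 455 CPM per kb of exon and Clu 115 CPM per kb. The other 7 lay between 0.108 CPM per kb for Krt20 and 1.72 CPM per kb for Vcam1. In diseased anti-GBM kidneys with vehicle the order by the same measure was led by Spp1 (5511 CPM per kb), Clu (419 CPM per kb) and Havcr1 (122 CPM per kb), with Sox9 lowest at 4.80 CPM per kb. Havcr1 had been the fourth of the 9 in healthy mice, at 0.850 CPM per kb, and was the third in disease.

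An annotated gene overlaps 4 of the members. Spp1 shares 309 of its 1648 exon bases with Gm42793 on the same strand, which had 3 to 305 counts, so the count of Spp1 is uncertain by the reads of this stretch. Vcam1 shares 61 exon bases with the antisense gene Gm43109, which had 0 to 3 counts. Timp1 lies inside Syn1 on the opposite strand and Cd44 around the small RNA gene Gm23731, and neither shares exon bases with it.

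RefSeq promoter entries (GRCm38.p6) matched 6 members. The 3 shown, all low in healthy kidney, had a single start and no exon of the gene in the 250 bases before it. Capitals mark any of 6 searched motifs on either strand. For Krt20 the window is chr11:99438154-99438403 on the minus strand, for Timp1 chrX:20869916-20870165 on the plus strand and for Cd44 chr2:102901666-102901915 on the minus strand.
Krt20: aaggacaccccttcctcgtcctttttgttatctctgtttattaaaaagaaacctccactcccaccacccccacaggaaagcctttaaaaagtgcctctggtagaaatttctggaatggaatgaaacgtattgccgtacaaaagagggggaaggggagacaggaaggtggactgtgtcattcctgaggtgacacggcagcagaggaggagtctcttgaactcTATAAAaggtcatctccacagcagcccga
Timp1: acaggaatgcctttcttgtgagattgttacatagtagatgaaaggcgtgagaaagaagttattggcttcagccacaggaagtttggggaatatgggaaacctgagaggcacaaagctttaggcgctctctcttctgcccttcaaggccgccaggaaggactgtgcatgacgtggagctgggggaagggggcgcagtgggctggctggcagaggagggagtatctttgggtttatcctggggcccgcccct
Cd44: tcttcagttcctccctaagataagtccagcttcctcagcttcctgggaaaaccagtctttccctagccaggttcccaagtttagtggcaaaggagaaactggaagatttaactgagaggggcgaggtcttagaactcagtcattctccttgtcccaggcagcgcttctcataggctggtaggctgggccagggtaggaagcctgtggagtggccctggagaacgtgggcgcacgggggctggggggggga
The Krt20 window holds TATAAA, the TATA box, starting 29 bases before the transcription start. TATAAA was found in 12.4% of the 32851 promoter windows of the same length. None of the 3 windows holds the AP-1 letters TGANTCA (6.75% of all windows), the NF-kB motif (1.41%), the STAT letters TTCNNNGAA (7.02%), the SOX letters ACAATG (10.7%) or the CEBP letters TTGCNNAA (9.56%). Over all 9 windows of the 6 matched members, the CEBP letters were in 3, one each of Lcn2, Spp1 and Havcr1, and TATAAA in 2, one each of Krt20 and Spp1. The AP-1, STAT, NF-kB and SOX letters were in none of them. Of the Lcn2 window, 197 of the 250 bases lie in exons of Lcn2 itself. The Spp1 and Havcr1 windows with the CEBP letters lie inside these genes, and their other windows hold none. These are counts of letters in a short window.

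Anti-GBM disease raised all 9 genes. With vehicle, each of the 9 passed edgeR's quasi-likelihood test at a Benjamini-Hochberg adjusted p below 0.05, all upward, against 19.4% of the 15859 genes tested that were called higher and 20.4% called lower. No member's diseased mice overlapped its healthy mice, and over all genes tested 16.8% were higher in every diseased than in every healthy mouse. The members were chosen with earlier results of these data known, so these shares stand beside them as a description. The log2 fold changes ran from 1.86 for Clu to 7.71 for Krt20 with a median of 4.77, beside a median of -0.01 over all genes tested. Krt20, Havcr1 and Lcn2 ranked 4, 5 and 6 among all genes by log2 fold change.

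**Figure D1:**
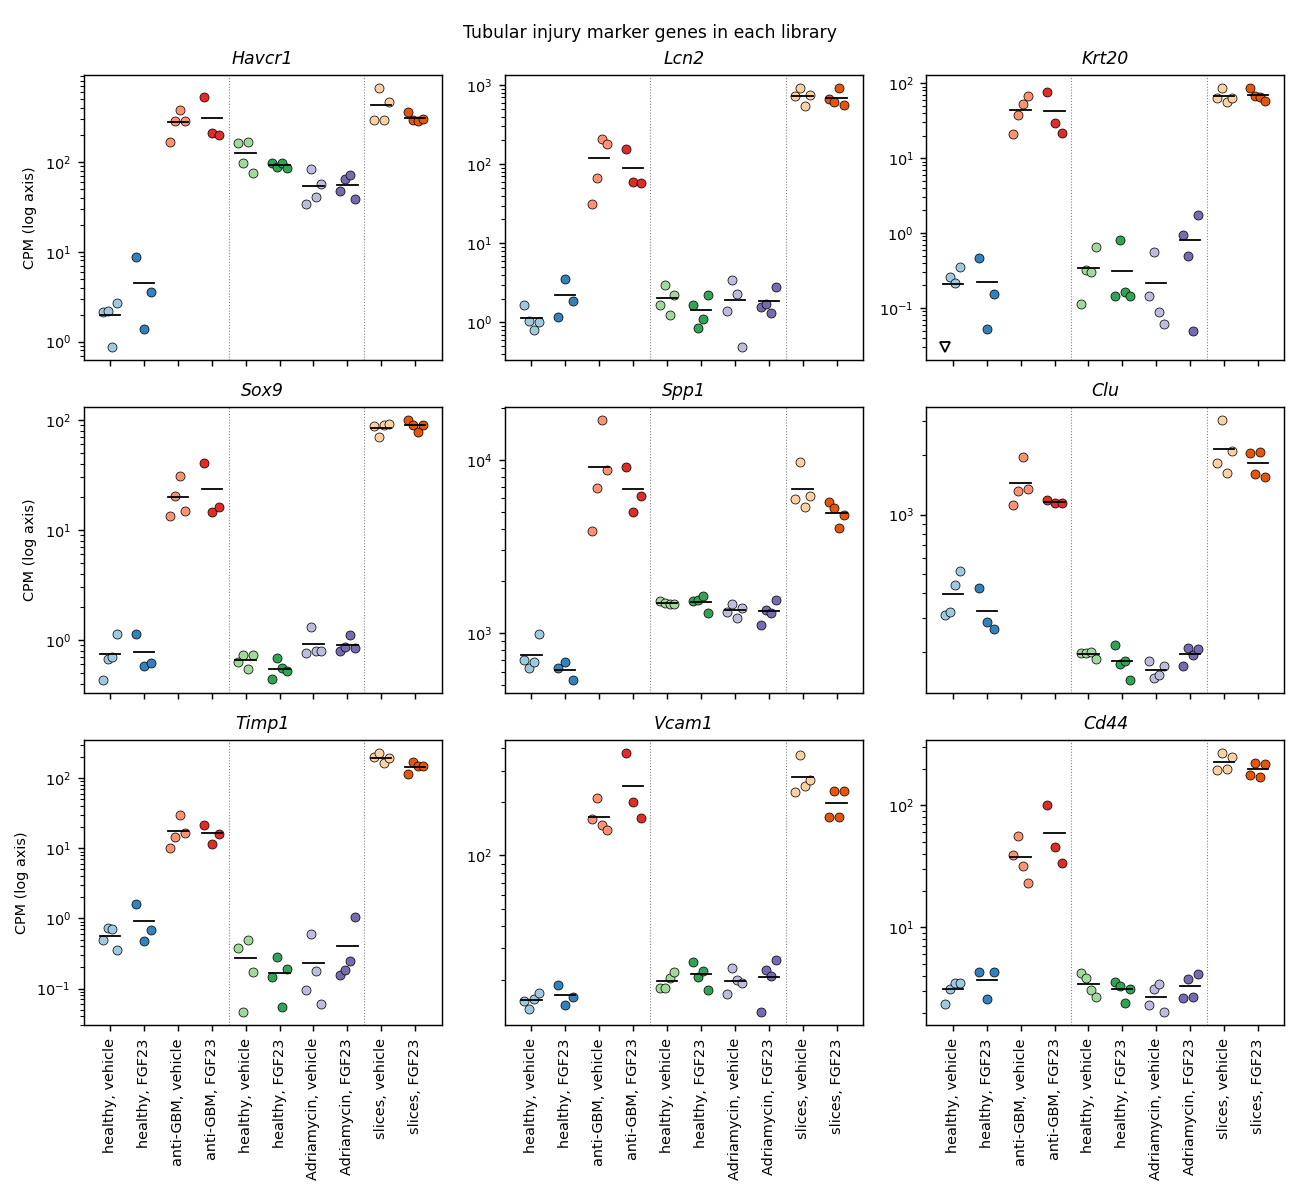
Levels of the 9 genes in every library, in CPM on a log axis. Each point is 1 mouse or slice culture, the bar is the group mean, dotted lines separate the 3 experiments, and the open triangle is the 1 library with no Krt20 count. Diseased anti-GBM mice lie above their healthy mice for all 9 genes, and Adriamycin mice lie above theirs only for Sox9. Havcr1 stands near 100 CPM in healthy BALB/c mice and near 2 CPM in healthy C57BL/6 mice.

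Havcr1 (chr11:46735080-46779578, GRCm38) encodes KIM-1, a receptor by which injured proximal tubule cells take up dead cells. The 4 healthy vehicle mice (mice 1 to 4) had 2.11, 2.17, 0.869 and 2.72 CPM, and the 4 diseased vehicle mice (mice 5 to 8) had 166, 288, 382 and 288 CPM. The lowest diseased mouse was far above the highest healthy one. The log2 fold change was 7.18 ± 0.554 (SE), a 145-fold rise (adjusted p = 1.66e-06, edgeR's quasi-likelihood test).

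Lcn2 (chr2:32384633-32388252) encodes NGAL, a secreted protein that binds bacterial iron carriers and is used as an early urinary marker of kidney injury. It went from 1.68, 1.03, 0.814 and 1.00 CPM in healthy mice to 30.9, 66.9, 207 and 180 CPM in diseased mice. Mouse 5 was the lowest and mouse 7 the highest, a 6.68-fold span within the group and the widest of the 9 genes. The log2 fold change was 6.75 ± 0.697 (SE, adjusted p = 1.31e-05, edgeR).

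Spp1 (chr5:104435118-104441050) encodes osteopontin, a secreted phosphoprotein that binds integrins and CD44. It was already abundant in healthy mice, with 702, 627, 683 and 986 CPM, and reached 3865, 6839, 16940 and 8680 CPM in disease. Mouse 7 again stood highest and mouse 5 lowest. The fold change was 12.1 (log2 3.60 ± 0.370 SE, adjusted p = 1.27e-05, edgeR).

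Clu (chr14:65968483-65981547) encodes clusterin, a secreted chaperone. It had 311, 319, 438 and 520 CPM in healthy mice and 1121, 1324, 1971 and 1343 CPM in diseased mice. This was the smallest rise of the 9, 3.63-fold, and its groups were also separate (log2 1.86 ± 0.209 SE, adjusted p = 2.57e-05, edgeR).

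Timp1 (chrX:20870166-20874735) encodes an inhibitor of matrix metalloproteinases. Healthy mice had 0.497, 0.722, 0.706 and 0.357 CPM, which are 5 to 14 counts, and diseased mice had 9.97, 14.5, 30.4 and 16.4 CPM. Mouse 7 was once more the highest. The fold change was 30.2 (log2 4.92 ± 0.431 SE, adjusted p = 3.91e-06, edgeR).

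Krt20 (chr11:99428403-99438150) encodes a keratin of simple epithelia that is absent from most healthy tubule cells. The healthy mice held 0, 5, 4 and 5 counts, or 0, 0.258, 0.217 and 0.357 CPM. The diseased mice held 385 to 938 counts, or 21.3, 37.1, 52.5 and 67.0 CPM, so that every diseased mouse was far above the healthy range. The fitted log2 fold change of 7.71 ± 0.660 (SE) is the largest of the 9 and rests on those few healthy counts (adjusted p = 3.28e-06, edgeR).

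Sox9 (chr11:112782224-112787760) encodes a transcription factor of developing and regenerating tubules. It had 0.435, 0.670, 0.706 and 1.14 CPM in healthy mice and 13.3, 20.2, 30.9 and 15.0 CPM in diseased mice. The fold change was 27.2 (log2 4.77 ± 0.438 SE, adjusted p = 5.74e-06, edgeR).

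The adhesion molecules rose as well, Vcam1 with the least spread between diseased vehicle mice of the 9 genes (1.51-fold from lowest to highest). Vcam1 (chr3:116109949-116129688), which binds the leukocyte integrin VLA-4, had 15.1, 13.6, 15.5 and 16.9 CPM in healthy and 160, 209, 148 and 139 CPM in diseased mice. Its log2 fold change of 3.43 ± 0.233 (SE) had the lowest adjusted p of the 9 (8.86e-07, edgeR). Cd44 (chr2:102811141-102901665), the hyaluronan receptor, had 2.36, 3.15, 3.47 and 3.501 CPM in healthy mice and 38.9, 56.4, 31.6 and 23.3 CPM in diseased mice. Its log2 fold change was 3.59 ± 0.366 (SE, adjusted p = 1.18e-05, edgeR). For these 2 genes mouse 6 was the highest of the vehicle mice and mouse 8 the lowest, unlike the secreted proteins.

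The same 9 genes were called higher in diseased than in healthy mice when both had received FGF23, where 14.5% of all genes tested were called higher. Log2 fold changes ran from 1.85 for Clu to 7.47 for Krt20. Havcr1 rose by 6.08 ± 0.587 (SE, adjusted p = 1.25e-05, edgeR) and Lcn2 by 5.35 ± 0.732 (SE, adjusted p = 0.000164, edgeR) on the log2 scale. With 3 mice a group, single mice weighed on the size of the fold. Without healthy mouse 9, which had 8.65 CPM of Havcr1 against 1.37 and 3.61 CPM in mice 10 and 11, the Havcr1 log2 fold change was 7.07, that of Krt20 8.73 and that of Timp1 4.87. Without healthy mouse 10 that of Lcn2 was 5.95. Without diseased mouse 13, those of Havcr1, Lcn2, Krt20 and Sox9 were 5.50, 4.72, 6.75 and 4.29. All 9 members stayed called in each of the 14 fits that left out 1 mouse.

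**Figure D2:**
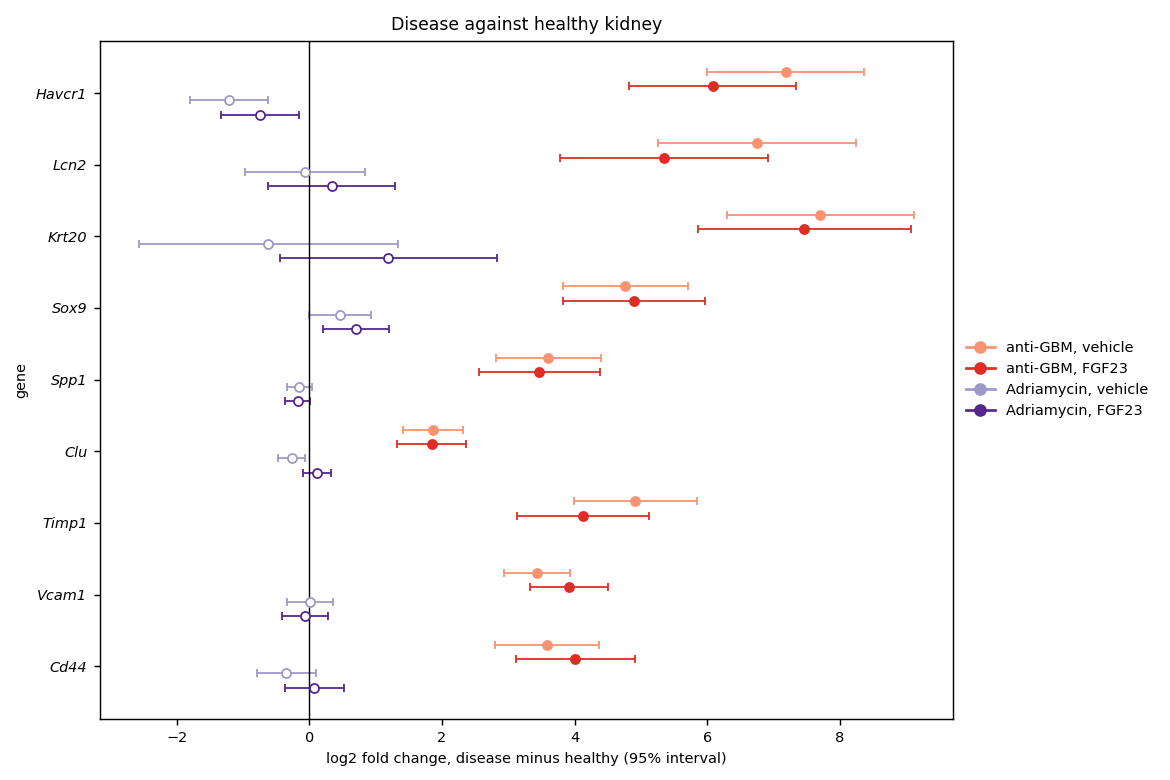
Log2 fold change of disease over healthy kidney for the 9 genes in the anti-GBM and Adriamycin experiments, with vehicle and with FGF23. Points are edgeR estimates, bars are 95% intervals from the quasi-likelihood standard error, filled points passed an adjusted p of 0.05, and Timp1 has no Adriamycin point because its counts were too low to be tested. All anti-GBM points are filled and lie between 1.85 and 7.71, and no Adriamycin point is filled.

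Other genes of the kidney moved in the same mice. Of 36 further injury genes, also chosen with earlier results known, 34 were called higher and 1 lower in diseased than in healthy vehicle mice. Their log2 fold changes had a median of 1.54. The largest called rises were in Fosl1, an AP-1 subunit, from 0.0307 to 2.58 CPM on average, and in Sprr2f, an epithelial envelope protein, from 0.0129 to 1.29 CPM. Healthy libraries held at most 1 count of either gene, so no fold is given. The 1 that fell was Itgb6, an integrin subunit (log2 fold change -0.40, adjusted p = 0.0231, edgeR).

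Transporters and enzymes of the proximal tubule went the other way. Of 22 such genes 13 were called lower and 1 higher, and the median on the log2 scale was -0.53. The amino acid transporters Slc7a13 and Slc6a19 fell by 1.40 and 1.22 on the log2 scale, and Pck1, an enzyme of glucose synthesis, rose by 1.08. Summed over the 22 genes, healthy vehicle mice had 59780 to 71050 CPM and diseased vehicle mice 28350 to 57790 CPM. Mouse 7, with the highest Lcn2, Spp1, Clu and Timp1, had the lowest of these sums. In the thick ascending limb 3 of 6 genes were called lower, among them Egf, a growth factor made there, by 1.09 on the log2 scale, and Cldn10. In the collecting duct 1 of 7 genes was called higher (Atp6v1g3, log2 fold change 0.50), and in endothelium 1 of 6 lower (Kdr, -0.62), while none of the 4 distal convoluted tubule or 6 podocyte genes was called in edgeR's test.

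Markers of other cell types rose beside the members. All 8 fibroblast and myofibroblast genes were called higher, led by Col1a1 and Col3a1 with log2 fold changes of 2.44 and 2.23, and their sum went from 338 to 500 CPM in healthy to 1124 to 1628 CPM in diseased vehicle mice. Of 8 macrophage genes 7 were called higher, led by Lyz2 and C1qb with 2.45 and 2.10, and their sum went from 154 to 164 CPM to 333 to 641 CPM. All 6 neutrophil genes were called higher, S100a8 from 0.148 to 3.24 CPM and Mmp8 from 0.0136 to 0.715 CPM, and their sum went from 1.34 to 2.50 CPM to 10.3 to 22.1 CPM. Of 6 T cell genes Cd3e was called higher (0.86). No gene of these lists was at 0 in every mouse of either group. The part of these cells in the levels of Vcam1, Cd44, Timp1, Spp1 and Lcn2 was not tested. Among the diseased vehicle mice, mouse 6 had the highest macrophage sum (641 CPM) and mouse 8 the lowest (333 CPM). Vcam1 and Cd44 had the same ends within this group. With FGF23, diseased mouse 13 had more Vcam1 (378 CPM) and Cd44 (99.9 CPM) than mouse 6 (209 and 56.4 CPM). The macrophage sums of its group were 515 to 537 CPM, below that of mouse 6.

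The 7 diseased mice did not share 1 order over the 9 genes. Mouse 7 (vehicle) was the highest of the 7 for Lcn2, Spp1, Clu and Timp1, and mouse 13 (FGF23) for Havcr1, Krt20, Sox9, Vcam1 and Cd44. Mouse 5 was the lowest for 7 genes, and mouse 8 for the remaining pair, Vcam1 and Cd44. Mouse 8 shows the contrast best, since it lay 1.03 above the mean of the 7 mice for Lcn2 and 0.86 below it for Cd44, both in log2 CPM. These are descriptions of single animals.

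**Figure D3:**
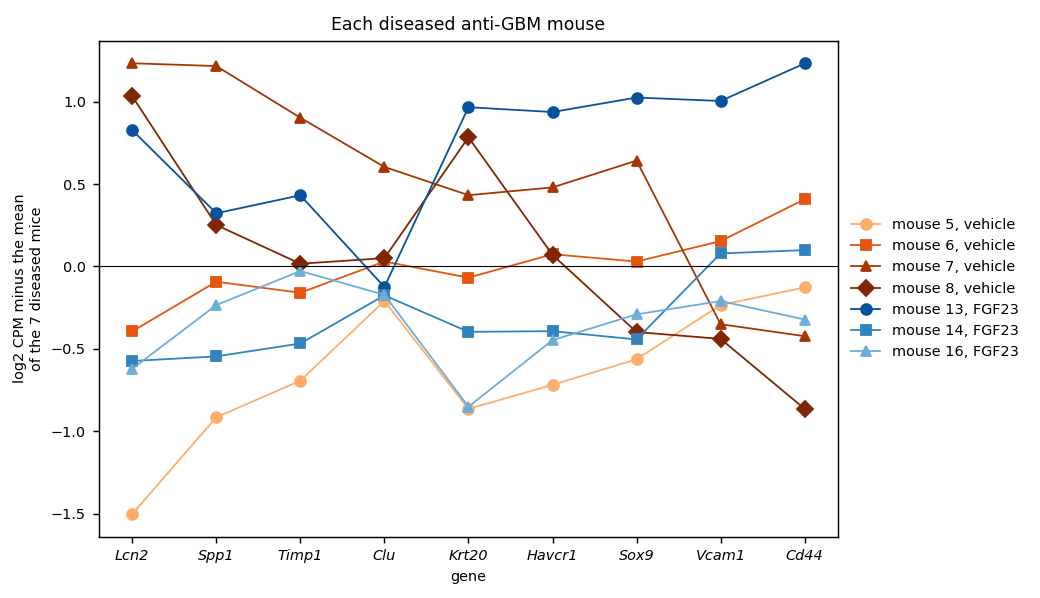
Log2 CPM of each gene in each of the 7 diseased anti-GBM mice, minus the mean of the 7. Lines join the genes of 1 mouse, red-brown for vehicle and blue for FGF23. Mouse 7 is at the top for the 4 secreted proteins on the left and below the mean for Vcam1 and Cd44, and mouse 13 is at the top for the 5 genes on the right.

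FGF23 itself did not move a member past the threshold in diseased anti-GBM kidneys. None of 9 was called by edgeR's quasi-likelihood test or by DESeq2, where 0.24% of all genes were called by edgeR. An unadjusted p below 0.05 was reached by 1 of the 9 and by 12.6% of all genes. Vcam1 was that gene, with 378, 199 and 163 CPM in mice 13, 14 and 16 against 139 to 209 CPM with vehicle. The log2 difference was 0.57 ± 0.221 (SE, adjusted p = 0.349, edgeR) and fell to 0.14 without mouse 13. Cd44 had 99.9, 45.5 and 33.9 CPM in the same 3 mice against 23.3 to 56.4 CPM with vehicle. Its log2 difference was 0.66 ± 0.322 (SE, adjusted p = 0.410, edgeR), and 0.08 without mouse 13. The members' median difference was -0.08. The 95% intervals differed in width by gene, from -1.54 to 0.68 for Lcn2 down to -0.79 to 0.15 for Clu on the log2 scale.

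In healthy C57BL/6 mice the 6 days of FGF23 gave no call among the members, none among all genes (0% of them), and no member with an unadjusted p below 0.05 in edgeR's test, a threshold reached by 4.34% of all genes. DESeq2 called no member and 0 genes. Havcr1 had 8.65, 1.37 and 3.61 CPM with FGF23 against 0.869 to 2.72 CPM with vehicle, and mouse 9 alone lay far outside the vehicle range. The test of whether the FGF23 difference changed with disease called none of the 9 in edgeR or DESeq2, where 0.0315% of all genes were called by edgeR. No member had an unadjusted p below 0.05, which 8.3% of all genes had.

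In Adriamycin nephropathy no member passed the threshold in edgeR's test. None of the 8 members that could be tested was called between diseased and healthy vehicle mice by edgeR's quasi-likelihood test, where 0.119% of 16020 genes were called higher and 0.212% lower. An unadjusted p below 0.05 was reached by 2 of the 8 members, both lower in disease, and by 8.27% of all genes. The members' median log2 fold change was -0.21.

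Havcr1 had the largest difference, and it was downward. Healthy vehicle mice 17 to 20 had 161, 96.5, 166 and 75.1 CPM, and Adriamycin vehicle mice 21 to 24 had 34.4, 84.3, 40.9 and 56.7 CPM. The groups overlapped through mouse 22 and mouse 20. The log2 fold change was -1.21 ± 0.279 (SE, adjusted p = 0.101, edgeR), 2.31-fold lower. DESeq2 called it (adjusted p = 0.0181), and so did edgeR without mouse 22 (log2 -1.51, adjusted p = 0.0180), without mouse 20 (-1.39, adjusted p = 0.0363) and with no filter on low counts (-1.20, adjusted p = 0.0135). After 1 dose of FGF23 the difference had the same sign, with 98.4, 88.5, 96.8 and 86.6 CPM in healthy and 47.8, 63.9, 70.8 and 38.2 CPM in Adriamycin mice. These groups did not overlap, as was the case for 6% of all genes (log2 -0.75 ± 0.278 SE, adjusted p = 0.270, edgeR).

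The remaining members had smaller or less certain differences. Clu was 198, 199, 201 and 185 CPM in healthy and 180, 148, 154 and 171 CPM in Adriamycin vehicle mice, with a log2 fold change of -0.26 ± 0.0975 (SE, adjusted p = 0.421, edgeR). Sox9 was 0.550 to 0.732 CPM in healthy and 0.768 to 1.31 CPM in Adriamycin vehicle mice, at 11 to 28 counts a library, and its log2 fold change was 0.46 ± 0.223 (SE, adjusted p = 0.626, edgeR). Spp1, Clu and Sox9 were the 3 of 8 tested members whose vehicle groups did not overlap, against 5.71% of all genes tested. Vcam1 gave 0.01 ± 0.164 and Lcn2 -0.06 ± 0.427 (log2 ± SE), with intervals from -0.34 to 0.35 and from -0.97 to 0.84.

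Krt20 and Timp1 were near the floor of detection in all 16 mice of the Adriamycin experiment, with 1 to 27 and 1 to 16 counts a library. Timp1 did not pass the filter on low counts. The interval for Krt20 between the vehicle groups ran from -2.57 to 1.33 on the log2 scale, so a change of several fold was not detectable at this depth. Between the FGF23 groups, where 0.462% of all genes were called higher and 0.237% lower, none of the 8 members was called by edgeR or DESeq2 and 2 had an unadjusted p below 0.05, Havcr1 and Sox9, as had 12.7% of all genes. Sox9 had 0.438 to 0.683 CPM in healthy and 0.792 to 1.12 CPM in Adriamycin mice with FGF23 (log2 0.70 ± 0.233 SE, adjusted p = 0.225, edgeR). Havcr1 and Sox9 were the 2 of 8 tested members whose FGF23 groups did not overlap, against 6% of all genes tested.

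Of the further genes listed here only a pair was called between the Adriamycin vehicle groups, where 53 of all 16020 genes tested were called. Cdkn1a, the cell cycle inhibitor p21 and 1 of 34 further injury genes tested, was higher (12.5 against 5.38 CPM, log2 1.21 ± 0.142 SE, adjusted p = 0.00165, edgeR). Kap, the androgen-regulated proximal tubule protein and 1 of 22 proximal tubule genes, was lower (188 against 2965 CPM, log2 -3.98 ± 0.476 SE, adjusted p = 0.00165, edgeR). No other listed marker that was tested, of podocytes, fibroblasts, macrophages, neutrophils or other cells, was called there in edgeR's test. Only 2 of 6 neutrophil, 4 of 6 T cell and 3 of 5 B cell genes passed the filter on low counts and were tested. The podocyte genes had sums of 634 to 705 CPM in healthy and 652 to 784 CPM in Adriamycin vehicle mice.

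The 2 disease effects differed for every member. In 1 fit of all 38 libraries, the anti-GBM effect minus the Adriamycin effect with vehicle was positive and called for 9 of 9 genes, against 26.8% of 17919 genes called in either direction. The log2 difference ran from 2.12 ± 0.255 (SE) for Clu to 8.39 ± 0.599 for Havcr1 (adjusted p = 3.98e-07 and 3.67e-11, edgeR). The Krt20 and Timp1 differences, 8.30 ± 1.42 and 5.06 ± 1.02, rest on few counts in BALB/c mice and rose to 9.41 and 6.11 without mouse 22. Disease, strain, sex, time and experiment differ together here and cannot be told apart.

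The healthy level of Havcr1 differed widely between the experiments. Healthy vehicle C57BL/6 males had 0.869 to 2.72 CPM and healthy vehicle BALB/c females 75.1 to 166 CPM, a 64.4-fold difference (log2 -6.01 ± 0.477 SE for C57BL/6 minus BALB/c, adjusted p = 3.45e-12, edgeR). The highest healthy BALB/c mouse was level with the lowest diseased C57BL/6 vehicle mouse. Spp1 was also lower in C57BL/6 (log2 -0.999 ± 0.250 SE, adjusted p = 0.00166) and Clu higher (1.02 ± 0.180 SE, adjusted p = 2.55e-05), and these 3 were the members called, where 40.5% of all genes were called. Lcn2, Krt20, Sox9, Timp1, Vcam1 and Cd44 were not called, with log2 differences between -0.85 and 1.09. Strain, sex and experiment cannot be told apart.

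A single dose of FGF23 moved no member past the threshold in BALB/c kidneys within 24 h. In healthy mice edgeR called none of 8 members and no gene at all (0%), no member had an unadjusted p below 0.05 (6.69% of all genes had), and DESeq2 called no member and 16 genes. In Adriamycin mice edgeR and DESeq2 called none of 8, where 0.0375% of all genes were called by edgeR, and 2 members and 5.69% of all genes had an unadjusted p below 0.05. The first was Clu, with 172, 210, 195 and 209 CPM with FGF23 against 148 to 180 CPM with vehicle (log2 0.27 ± 0.0976 SE, adjusted p = 0.825). The other was Krt20, with 0.950, 0.499, 0.0487 and 1.76 CPM in mice 29 to 32 against 0.0609 to 0.559 CPM with vehicle, at 1 to 27 counts (log2 1.79 ± 0.839 SE, adjusted p = 0.873, edgeR). The test of whether the FGF23 difference changed with Adriamycin called none of 8 members in edgeR or DESeq2 and 0% of all genes in edgeR, and Clu had an unadjusted p below 0.05, as had 5.11% of all genes (log2 0.38 ± 0.138 SE, adjusted p = 0.941).

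**Figure D4:**
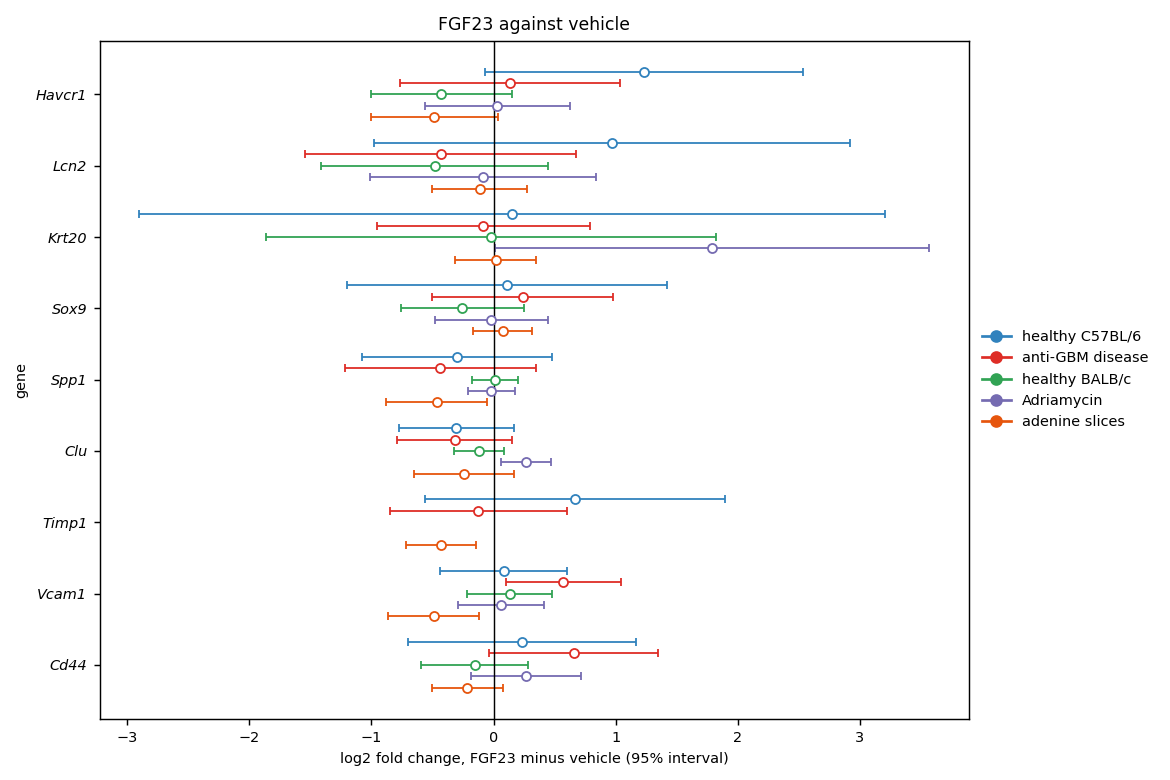
Log2 fold change of FGF23 over vehicle for the 9 genes in healthy C57BL/6 mice, anti-GBM disease, healthy BALB/c mice, Adriamycin nephropathy and adenine slices. Points are edgeR estimates and bars 95% intervals, and open points did not pass an adjusted p of 0.05. No point is filled, the estimates lie between -0.49 and 1.79, and the widest bars belong to Krt20 in mice where it was near the floor.

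In the adenine slices all 9 genes stood within or above the range of diseased anti-GBM kidneys. Lcn2, Sox9, Timp1 and Cd44 had their 8 slice values above every mouse of either experiment, with 549 to 931 CPM for Lcn2, 69.6 to 99.4 CPM for Sox9, 116 to 231 CPM for Timp1 and 171 to 270 CPM for Cd44. Havcr1 (284 to 672 CPM), Krt20 (55.6 to 87.6 CPM), Spp1 (4030 to 9668 CPM), Clu (1556 to 3016 CPM) and Vcam1 (163 to 367 CPM) overlapped the diseased anti-GBM mice. The proximal tubule genes summed to 970 to 2212 CPM in slices against 28350 to 71050 CPM in all kidneys, the fibroblast genes to 1298 to 2742 CPM and the macrophage genes to 435 to 744 CPM. Strain, adenine, age and culture differ from the mice together and cannot be told apart. By the counts of Xist and the Y-linked genes, sex differs from the anti-GBM mice as well.

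FGF23 in the medium did not move a member past the threshold. EdgeR called none of 9 and 0% of all genes, with 3 of the 9 members and 4.89% of all genes at an unadjusted p below 0.05, and DESeq2 called no member and 3 genes. Those 3 members, Timp1, Vcam1 and Spp1, were lower with FGF23. Timp1 had 198, 231, 165 and 193 CPM with vehicle and 116, 172, 149 and 149 CPM with FGF23, with a log2 difference of -0.43 ± 0.130 (SE, adjusted p = 0.849, edgeR). Vcam1 had 226, 367, 247 and 266 CPM with vehicle and 165, 232, 163 and 230 CPM with FGF23 (log2 -0.49 ± 0.170 SE, adjusted p = 0.849, edgeR). For both genes the groups overlapped by a narrow margin. Spp1 had 5912, 9668, 5375 and 6218 CPM with vehicle and 5676, 5273, 4030 and 4776 CPM with FGF23 (log2 -0.47 ± 0.188 SE, adjusted p = 0.849, edgeR). Culture 35 (vehicle) was the highest of the 8 for all members but Sox9, and it also had the highest macrophage and fibroblast sums. Havcr1 had 293, 672, 293 and 460 CPM with vehicle and 355, 295, 284 and 298 CPM with FGF23, and its log2 difference of -0.49 ± 0.236 (SE) became -0.19 without culture 35 (adjusted p = 0.849 with all cultures, edgeR).

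Within groups, each member varied together with different genes. Over the 30 kidneys, with log2 CPM centred on the group mean, Pearson's r was computed against 15243 other genes tested in both mouse experiments (15244 for Timp1), as a description without a test, since all genes share the libraries, their depth and their scaling. The spread within groups was not scaled, so groups with a wide spread weigh most in r. Spp1 spanned 4.38-fold in diseased anti-GBM vehicle mice and 1.04-fold to 1.40-fold in the Adriamycin experiment's groups. Lcn2 was most like Tnfrsf1a (r = 0.893), the TNF receptor 1 gene, Slc12a4 (0.883) and Capn2 (0.853). Spp1 was most like Triobp (0.893), Ccnf (0.861) and Fgg (0.83), which encodes fibrinogen gamma. Clu was most like the lysosomal proteases Ctsb (0.857) and Lgmn (0.826) and the enzyme Gpt2 (0.825). Those of Vcam1 were Dock10 (0.838), Icam1 (0.731), another adhesion molecule, and Cmtm3 (0.708). Cd44 was nearest to Adam11 (0.733), Apbb1ip (0.721) and the myeloid adaptor Tyrobp (0.709). Havcr1 was nearest to AU040320 (0.758), Cttn (0.743) and Lgals1 (0.732), and Sox9 to Mdm2 (0.735), Pogk (0.718) and Itgav (0.715). Timp1 (Tgfbi 0.670, Bak1 0.668, Vegfc 0.659) and Krt20 (Vcpkmt 0.655, Trp53 0.649, Sh3glb1 0.629) had the lowest values, and both had few counts in healthy mice.

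Across all 10 groups the order of the mean levels had the same break for all 9 genes. The 2 slice groups and the 2 diseased anti-GBM groups came first, in an order that varied by gene. On the scale of TMM factors over all 38 libraries, every library of these 4 groups lay above every library of the 6 other groups. Below the break, neighbours in the order overlapped for Lcn2, Krt20, Sox9, Timp1, Vcam1 and Cd44, with group means between 1.13 and 2.203 CPM for Lcn2 and between 15.3 and 21.5 CPM for Vcam1. For Havcr1 the break between single libraries depended on the scaling. The lowest diseased anti-GBM mouse (mouse 5) had 166.4 CPM and the highest healthy BALB/c mouse (mouse 19) 165.9 CPM. Mouse 5 had 3006 of 19515764 counts and mouse 19 had 3319 of 20396181, so without TMM factors mouse 19 was the higher. The BALB/c groups stood above both healthy C57BL/6 groups for Havcr1.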

How the data were processed

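RNA was measured by bulk RNA-Seq in 30 mouse kidneys and 8 slice cultures. The authors deposited raw read counts per gene for 55487 genes, made with bcl2fastq 2.20.0, FastQC 0.11.8, STAR 2.7.9a and featureCounts 1.5.1 on GRCm38, per the submitters' processing notes. Groups are those of the labels. Each mouse column was matched to its group by the column headers of the study's supplementary tables, which do not tell which labelled sample it is, and each slice column by the number and treatment letter in its name. Levels are CPM with TMM factors (0.821 to 1.27) over all libraries. Each experiment was fitted with 1 mean per group in edgeR 4.0.16 (limma 3.58.1), using glmQLFit and glmQLFTest after filterByExpr with a minimum count of 10, which left 15859 genes in the anti-GBM, 16020 in the Adriamycin and 15090 in the slice experiment. Benjamini-Hochberg adjustment ran over all genes of a comparison, and genes with an adjusted p below 0.05 were called. A fit of all 38 libraries (17919 genes) compared the experiments. Fits were run on simulated data with set FGF23 differences, as a check of the code. Recovery was required only for the largest of these, so the check does not bound smaller differences. Total counts were 13704248 to 23630210 in the anti-GBM, 15665050 to 27583911 in the Adriamycin and 11186925 to 16254987 in the slice libraries. Replicate libraries differed by more than counting error (chi-square per degree of freedom at least 2.02). Labels call them biological replicates, without naming a separate animal for each slice culture, so p-values there measure the spread between cultures. The members and the gene lists were chosen with earlier results of these data known. Named were all members, the 2 called genes of each list with the largest change in each direction in the vehicle disease comparisons, and the 3 genes most like each member. Alternatives were relative log expression size factors, no or a stricter filter, an added fold threshold, DESeq2 1.42.0, a robust fit, 2-group fits, adjustment over 5 comparisons combined, a joint fit, a replicate block in the slices and leaving out each library.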

Additional observations from a re-analysis of the deposited data

Results flagged for a closer look

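In 5 of the 72 gene and group combinations of 4 samples, 1 library lay apart from the other three by Dixon's criterion, which chance alone marks in about 1 in 20. All 5 were in the Adriamycin experiment. Mouse 22 (Adriamycin, vehicle) had 0.559 CPM of Krt20 against 0.0609 to 0.144 CPM in the rest of its group, and 1.31 CPM of Sox9 against 0.768 to 0.792 CPM. Mouse 26 (healthy, FGF23) had 0.804 CPM of Krt20 against 0.143 to 0.165 CPM. Mouse 32 (Adriamycin, FGF23) had 1.05 CPM of Timp1 against 0.158 to 0.243 CPM, and mouse 20 (healthy, vehicle) had 185 CPM of Clu against 198 to 201 CPM.

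The disease effect with vehicle differed between anti-GBM and Adriamycin mice for each member, by edgeR's quasi-likelihood test of the difference itself. The log2 differences were 8.39 for Havcr1, 6.79 for Lcn2, 8.30 for Krt20, 4.30 for Sox9, 3.75 for Spp1, 2.12 for Clu, 5.06 for Timp1, 3.42 for Vcam1 and 3.93 for Cd44. Strain, sex and duration differ between the experiments as the disease does and cannot be told apart from it.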

How the results depend on the processing

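In the anti-GBM disease comparisons the number of members called stayed at 9 under each alternative but the filter of 10 counts in every library, under which 6 were tested and called. For Adriamycin disease with vehicle, 1 member (Havcr1) was called with no filter and with DESeq2 in place of 0, and 0 to 1 when a library was left out. For the difference between the disease effects, 5 were called where 10 counts were required in every library, since only 5 were then tested. Requiring a log2 change above 1 left 2 of the 3 members called between healthy C57BL/6 and BALB/c mice, without Spp1. The FGF23 comparisons gave 0 members under each alternative. Leaving out 1 library turned the sign of 75 of 1630 member estimates, in 10 comparisons and none of them called. Among these were Vcam1 (-0.0817 to 0.0814) and Lcn2 (-0.50 to 0.23) in Adriamycin disease, Sox9 between healthy mice (-0.12 without mouse 4 to 0.29), and, for FGF23 in C57BL/6 mice, Timp1 in healthy mice (0.67 with all mice, -0.03 to 1.01) and Spp1 in disease (-0.43 with all mice, -0.70 to 0.05). Over all genes, DESeq2 called 161 for FGF23 in anti-GBM disease in place of 38, adjustment over the combined comparisons 298, the joint fit 85 and the 2-group fit 12. For Adriamycin disease with vehicle DESeq2 called 158 in place of 53, no filter 98, the joint fit 26, the combined adjustment 27 and the 2-group fit 19. A replicate block by slice number gave 0 members and 0 genes. Same-numbered cultures correlated at 0.107, 0.105, -0.105 and 0.112 in their deviations, and differently numbered cultures at -0.16 to 0.123. These values cannot tell whether same-numbered cultures share an animal. The numbers were not taken as pairs in the main test. The mice were fitted without pairs, since each mouse was in a single group and the study describes no pairing of mice. Scaling within each experiment moved 14 of 90 group means by more than 1 SD, and no scaling 15. With 3 or 4 mice a group and few counts of Krt20, Timp1 and Sox9 outside anti-GBM disease and the slices, changes of these genes were the least well bounded.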
